A study of Ovis aries with 16 samples.

Results

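Gene expression in the frontal cortex of fetal sheep was compared between 5 hypoxia control fetuses and 3 normoxia control fetuses, neither group having received ketamine. These 8 fetuses, with 1 array each, were chosen by their sample titles and codes out of 16 arrays in all. The other 8 arrays came from 4 normoxia and 4 hypoxia fetuses given ketamine at 3 mg/kg, and they entered the statistical model only to estimate the spread between fetuses. They were also normalized together with the 8 arrays compared, and counted in the mean level by which 1 probe was chosen for a gene. All fetuses were late-gestation sheep with implanted catheters. The ewes of the hypoxia control group breathed gas with little oxygen for 30 min, because nitrogen was added through the trachea, and the normoxia control group was kept at normal oxygen for the same time. Both groups then stayed in normoxia for 23.5 h, and the cortex was taken 24 h after the onset of the stimulus. Most fetuses of the study were twins, and the sources used here do not say which of them shared a ewe. The labels of hypoxia control 1 conflict: its title and code place it in hypoxia control, where it is counted here, whereas its source name and characteristics describe normoxia with ketamine. Values without this fetus are therefore given beside the results.

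A short lack of oxygen activates the hypoxia-inducible factors, which switch on genes of glucose transport, glycolysis and vessel growth. In the brain it also starts an inflammatory response, in which microglia sense products of injured cells through Toll-like receptors and CD14 and signal through NF-kB. Chemokines and selectins on the vessel wall then recruit leukocytes, interferon-regulated genes raise antigen processing, and astrocytes increase their intermediate filaments. The tissue was whole cortex, so every level is an average over neurons, glia, vessels and blood, and in such bulk tissue more cells of a type and more RNA per cell cannot be told apart.

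Levels are log2 intensities after background correction and quantile normalization, and a difference is the mean of hypoxia control minus the mean of normoxia control, so that 1 unit is a 2-fold change. A probe was called when limma's unadjusted P was under 0.05, the threshold of the study's own methods. With 5 against 3 fetuses, the smallest two-sided exact permutation p is 0.036, reached whenever the groups do not overlap. The named genes with the largest differences and the unnamed probes were chosen among called probes without overlap. For them this exact p was fixed by the choice and adds nothing to limma's P. P-values measure the spread between fetuses only. On the 8 arrays 69.2 to 76.9% of spots were well above background, and pairs of arrays correlated between 0.985 and 0.995 over all probes. Normoxia control arrays resembled each other (0.994 to 0.995) more than hypoxia control arrays did (0.9866 to 0.9902). The arrays lay on 2 slides, the first with normoxia control 1 and 2 and hypoxia control 1 and 2, the second with normoxia control 3 and hypoxia control 3, 4 and 5. Neuronal genes (SST, NPY), astrocyte genes (AQP4, GFAP) and glutamate receptor genes (GRIA1, GRIA2, GRIA3) were well above background on every array. None of the listed markers of oligodendrocytes had a named probe here.

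The probes are 60-base sequences, and some of those that carried the largest differences are printed to show what was hybridized and how far the probes of a gene are separate measurements. IRF1 and NFKBIA had 1 probe each. For CD14, FGF2 and LGALS1 both probes are given, with the longest run of bases that a pair shares in capitals where it reached 20 bases.
IRF1: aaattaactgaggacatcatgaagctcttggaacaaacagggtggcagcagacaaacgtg
NFKBIA: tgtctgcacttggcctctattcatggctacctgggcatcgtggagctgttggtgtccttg
CD14 probe 1: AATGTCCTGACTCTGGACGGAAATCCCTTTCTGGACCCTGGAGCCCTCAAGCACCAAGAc
CD14 probe 2: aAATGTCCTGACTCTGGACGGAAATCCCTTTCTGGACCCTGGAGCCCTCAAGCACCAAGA
FGF2 probe 1: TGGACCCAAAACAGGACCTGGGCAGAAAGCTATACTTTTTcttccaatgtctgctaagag
FGF2 probe 2: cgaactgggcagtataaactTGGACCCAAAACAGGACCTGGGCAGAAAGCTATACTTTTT
LGALS1 probe 1: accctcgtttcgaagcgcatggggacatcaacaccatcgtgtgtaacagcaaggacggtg
LGALS1 probe 2: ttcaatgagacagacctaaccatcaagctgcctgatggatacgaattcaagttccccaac
The CD14 probes share 59 bases and the FGF2 probes 40, so that they read nearly the same stretch of the message, while the longest run shared by the LGALS1 probes is 6 bases. Of the 24 genes with the largest differences described next, 14 had 2 probes, 8 of these pairs overlapped by at least 20 bases, and both probes were called for 11 pairs.

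After hypoxia, 1201 of 15008 probes were called (8.00%), of which 496 were higher (3.30%) and 705 were lower (4.70%). After limma's P-values were adjusted by Benjamini-Hochberg, 0 probes (0%) were left under 0.05, the smallest value being 0.319. The increases were larger than the decreases: 63 called probes were at least 2-fold higher, and 2 were at least 2-fold lower. The median difference over all probes was -0.02. For 808 probes (5.38%) the groups did not overlap, and 537 of these were called, 215 higher and 322 lower. Were the 8 fetuses divided at random, a share of 0.036 of probes would be separated, so that a lack of overlap alone is not rare. The hypoxia control fetuses also differed more among themselves, with a median SD over probes of 0.128 against 0.0907 in normoxia control. Leaving out hypoxia control 1 gave 613 increases and 768 decreases. Without normoxia control 3, the calls fell to 332 higher and 484 lower. Of 1069 genes that could be named, each represented by its brightest probe, 116 were called (10.9%), 70 higher (6.55%) and 46 lower (4.30%), and their median difference was 0.0046. The counts of the gene lists that follow are to be read against these shares. Not every probe of a called gene was called. PPARGC1A and CYBB were called higher by 1 of their 3 probes. TLR4, IL13RA1, TNFSF13B, FCER1G, SERPINA1, TIMP1, ARNT and MCL1 were called higher by 1 of 2. SHMT1, PRKAA2, ACVR1, INHA, KIT, NOG, NKX2.2 and DYNLT3 were called lower by 1 of 2.

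**Figure D1:**
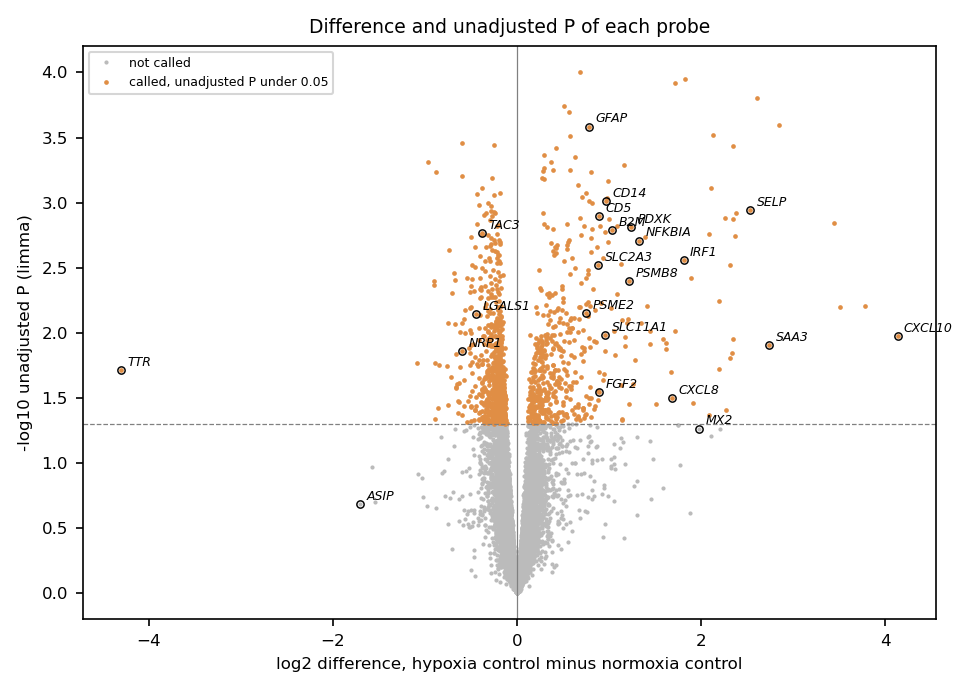
Difference of each of the 15008 probes (log2, hypoxia control minus normoxia control, horizontal axis) against the -log10 of limma's unadjusted P (vertical axis), with called probes in orange, the threshold as a dashed line and 1 probe of each labelled gene circled. The right side reaches 4.13 with CXCL10, while on the left TTR stands alone at -4.30 and most other called decreases are smaller than 1 unit.

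Of the genes that attract leukocytes and bind them to the vessel wall, CXCL10, CXCL8, SELP and ICAM1 rose, CXCL10 by more than any other probe on the array. CXCL10, a chemokine induced by interferon, measured 8.74, 9.51 and 7.77 in normoxia control 1 to 3 and 11.36, 14.79, 9.84, 15.93 and 12.11 in hypoxia control 1 to 5. All hypoxia control fetuses lay above all normoxia control fetuses, with hypoxia control 4 and 2 highest. CXCL10 rose by 4.13 (standard error 1.41, 17.6-fold, limma P = 0.0106, exact permutation p = 0.036), and by 4.50 without hypoxia control 1.

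SELP encodes P-selectin, the adhesion molecule that activated endothelium and platelets expose to leukocytes. Its level was 7.24, 6.93 and 6.96 in normoxia control and 10.24, 9.85, 8.81, 11.59 and 7.43 in hypoxia control, and the groups did not overlap, although hypoxia control 5 was close to normoxia. SELP rose by 2.54 (standard error 0.63, 5.80-fold, limma P = 0.00114, exact permutation p = 0.036), and by 2.37 without hypoxia control 1. The second SELP probe, which shares no run over 5 bases with the first, gave 1.89. Its signal cleared background on 2 of the 3 normoxia control arrays and on all 5 of hypoxia control.

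ICAM1, the ligand of leukocyte integrins, was 7.25, 6.91 and 6.94 in normoxia control and 8.02, 8.33, 7.71, 9.63 and 7.18 in hypoxia control. Only hypoxia control 5 fell within the normoxia range, and ICAM1 rose by 1.14 (standard error 0.37, limma P = 0.00804, exact permutation p = 0.071). Among the 3 normoxia control arrays its signal cleared background on 1. SELP and ICAM1 were the only called members of 13 measured genes of leukocyte adhesion, whose median difference was 0.07, and the same count of 2 was found when any 1 of the 8 arrays was left out. SELE, which encodes E-selectin, and VCAM1 differed by -0.07 and 0.14 and did not pass the test.

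CXCL8, the chemokine that attracts neutrophils, was 7.33, 7.12 and 7.24 in normoxia control and 10.68, 7.85, 7.69, 11.06 and 7.27 in hypoxia control. Hypoxia control 1 and 4 were far above the others, and hypoxia control 5 lay among the normoxia control fetuses. The difference of 1.68 (standard error 0.71, limma P = 0.0316, exact permutation p = 0.071) was called, and the call was lost without hypoxia control 1 (1.24), hypoxia control 4 (1.14) or any of the normoxia control fetuses (1.63 to 1.73). CXCL10 and CXCL8 were the called members among 7 measured chemokines and receptors, with a median difference of -0.0033. Leaving out any normoxia control fetus, hypoxia control 1 or hypoxia control 4 left 1 called higher, and without normoxia control 3 or hypoxia control 1 another member was called lower. CXCL1, a close relative of CXCL8, was saturated on all 8 arrays and gave no usable difference.

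**Figure D2:**
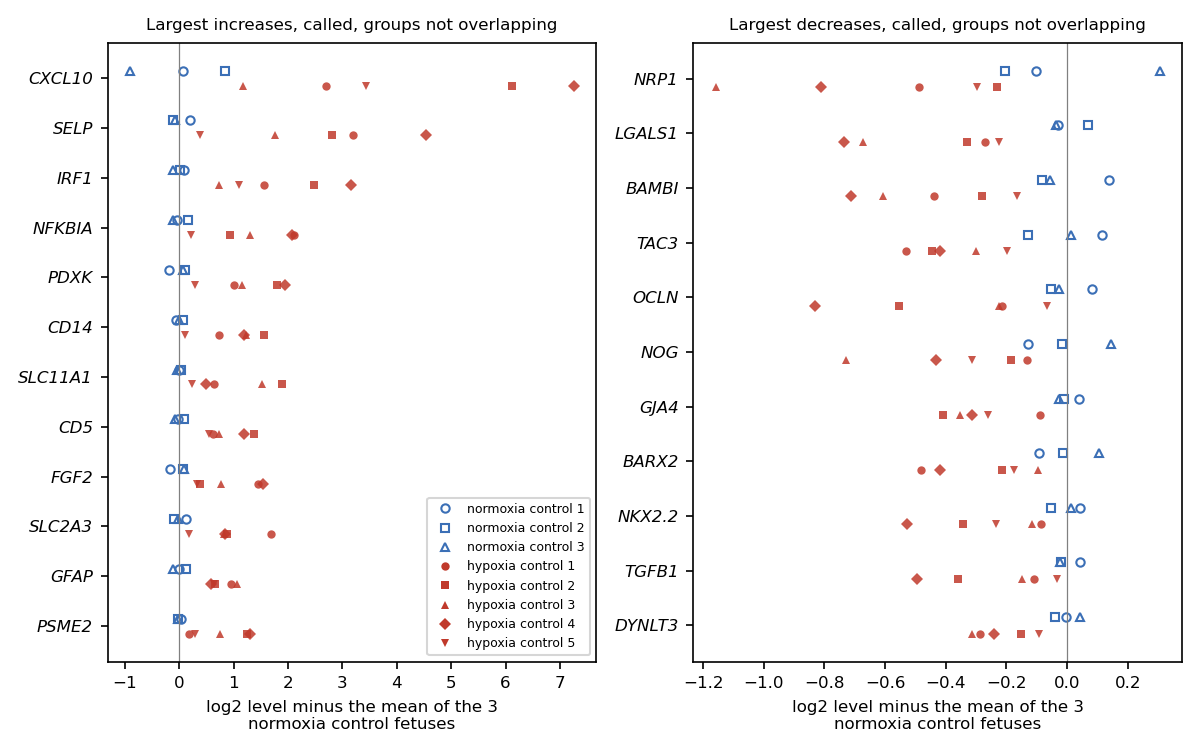
Level in each fetus minus the mean of the 3 normoxia control fetuses (log2, horizontal axis) for genes among the 12 named with the largest increases (left) and the 12 with the largest decreases (right) that were called and whose groups did not overlap, less 1 decrease that is not reported. Open blue symbols are normoxia control and filled red symbols hypoxia control fetuses, 1 symbol shape per fetus: CXCL10 in hypoxia control 4 and 2 (15.93 and 14.79) lies farthest from normoxia, the decreases are much smaller, and hypoxia control 5 is often the fetus nearest to normoxia.

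Among the receptors that sense bacterial and cell-injury products, CD14, TLR2 and TLR4 rose, and so did NFKBIA, the feedback inhibitor of their signalling pathway. CD14, the co-receptor that hands ligands to Toll-like receptors, measured 7.92, 8.06 and 7.98 in normoxia control and 8.72, 9.54, 9.22, 9.18 and 8.09 in hypoxia control. Hypoxia control 2 was highest, hypoxia control 5 was just above the normoxia range, and CD14 rose by 0.97 (standard error 0.23, limma P = 0.000977, exact permutation p = 0.036) or by 1.02 without hypoxia control 1. The other CD14 probe, which stands for the gene in the lists, rose by 0.95 (standard error 0.25, exact permutation p = 0.071). By that probe hypoxia control 5, at 8.03, lay within the normoxia range of 7.84 to 8.17. TLR2, which recognizes lipoproteins, rose by 0.55 (standard error 0.15) without overlap, and TLR4, the endotoxin receptor, rose by 0.32 (standard error 0.11) with hypoxia control 5 on the edge of the normoxia range. These 3 were the called members of 15 measured pattern recognition genes, none of which was called lower, and the median difference was 0.07. On this scale the calls of TLR2 and TLR4 depend on the normalization: when arrays were scaled to their 75th percentile after the same background correction, TLR4 gave 0.07 and TLR2 0.39, both without a call, while the processed signal of the scanner software scaled in the same way gave 0.96 and 1.12 with calls.

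NFKBIA encodes the inhibitor that NF-kB induces to switch itself off. Its level was 10.60, 10.80 and 10.52 in normoxia control and 12.75, 11.57, 11.95, 12.72 and 10.86 in hypoxia control. The groups did not overlap, hypoxia control 1 and 4 were highest, and NFKBIA rose by 1.33 (standard error 0.35, 2.51-fold, limma P = 0.00196, exact permutation p = 0.036). It rose by 1.13 without hypoxia control 1. The other measured members of the NF-kB list, IKBKB and TRAF3, differed by 0.0034 and -0.09 and were not called.

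Among 25 cytokines and receptors, 4 were called higher and none lower, and the median difference was 0.12. TNF, the early inflammatory cytokine, was 7.15, 6.98 and 7.03 in normoxia control and 7.06, 7.82, 7.59, 7.95 and 7.43 in hypoxia control, so that only hypoxia control 1 overlapped. TNF rose by 0.51 (standard error 0.19, limma P = 0.0188, exact permutation p = 0.071), a call lost without normoxia control 2 (0.48), and it was well above background on 1 normoxia control array. IL13RA1, a receptor chain for IL-4 and IL-13, rose by 0.35 without overlap, and its call was lost without normoxia control 1 or hypoxia control 3 (0.27 to 0.29). Scaled to the 75th percentile after normexp, TNF and IL13RA1 gave 0.22 and 0.16 without calls. The processed signal scaled in the same way gave 1.56 and 0.94. IL1RN, the antagonist of the IL-1 receptor, and TNFSF13B, the B cell survival factor BAFF, were not well above background on any normoxia control array. With the processing used here their mean levels were at least 1.24-fold and at least 1.499-fold higher in hypoxia control, with overlapping groups. Such a bound raises normoxia control values to the lowest signal well above background on their array. It carries no sampling error, and for IL1RN it equals the measured fold. These bounds do not hold under other scaling: at the 75th percentile after the same background correction, the differences were 0.06 and 0.37 without calls. The processed signal scaled in the same way gave 1.46 and 2.17. IL1RN was well above background on 2 and TNFSF13B on 3 of the hypoxia control arrays. The call of IL1RN was lost without normoxia control 1 or 3 or hypoxia control 2 or 4 (0.23 to 0.32), and that of TNFSF13B without any normoxia control fetus or hypoxia control 2 (0.59 to 0.67). The number of cytokine genes called higher moved between 1, without normoxia control 1, where another was called lower, and 7, without hypoxia control 5. It was 2 without normoxia control 2 or 3, and 6 without hypoxia control 1 or 3.

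Of the interferon-regulated genes a minority was called higher, and their levels were very unequal between hypoxia control fetuses. IRF1, the transcription factor that responds to interferon gamma and NF-kB, was 7.57, 7.49 and 7.37 in normoxia control and 9.05, 9.96, 8.22, 10.64 and 8.59 in hypoxia control. Every hypoxia control fetus lay above the normoxia range, hypoxia control 4 farthest, and IRF1 rose by 1.81 (standard error 0.50, 3.51-fold, limma P = 0.00276, exact permutation p = 0.036) or by 1.87 without hypoxia control 1. Of 9 measured interferon-stimulated genes and their regulators, 4 were called higher, among them IRF1, PSMB8 and IRF2, none was lower, all 9 differences were positive and the median was 1.05.

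IRF2, a factor related to IRF1, rose by 0.22, and its call was lost without normoxia control 1 or hypoxia control 4 (0.17 to 0.19). When arrays were scaled to the 75th percentile, IRF2 turned to -0.01 after normexp and was 0.66 with the scanner software's processed signal.

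The antiviral genes MX2 and ISG15 were among the 5 named genes that varied most between hypoxia control fetuses. MX2 was 9.52, 9.12 and 8.99 in normoxia control and 8.96, 12.75, 10.38, 14.61 and 9.24 in hypoxia control. Hypoxia control 4 and 2 were far above normoxia, whereas hypoxia control 1 and 5 were within or below its range, and the difference of 1.98 (standard error 0.95, limma P = 0.0545, exact permutation p = 0.25) was not called. ISG15, a ubiquitin-like protein, was 12.29, 10.99 and 10.66 in normoxia control and 9.88, 13.68, 11.69, 15.99 and 11.16 in hypoxia control. Its order among the hypoxia control fetuses was that of MX2 at the top, the value of hypoxia control 4 was saturated, and the difference of 1.17 (standard error 1.28) was not called.

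Averaged over the 9 genes, the level relative to the normoxia mean was 2.42 in hypoxia control 4, 1.59 in hypoxia control 2, 0.53 in hypoxia control 3, 0.36 in hypoxia control 5 and -0.12 in hypoxia control 1. Normoxia control 1 stood at 0.33 on the same scale, so that hypoxia control 1 was below it and hypoxia control 5 level with it. The number of called members rose from 4 to 6, and the median to 1.504, without hypoxia control 1. Without hypoxia control 4 the number fell to 2 and the median to 0.34, and without hypoxia control 3 it was 6.

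Of 14 measured genes of antigen presentation, 5 were called higher and none lower, with a median difference of 0.46, the second highest of the pathway lists. B2M, the invariant chain of MHC class I, was 13.85, 14.23 and 13.73 in normoxia control and 14.10, 15.68, 15.12, 15.24 and 14.72 in hypoxia control. Only hypoxia control 1 was within the normoxia range, and B2M rose by 1.03 (standard error 0.27, limma P = 0.00162, exact permutation p = 0.071) or by 1.25 without that fetus. PSMB8, the immunoproteasome subunit that interferon induces, was 7.75, 7.99 and 7.67 in normoxia control and 7.87, 9.87, 9.05, 9.77 and 8.53 in hypoxia control. It had the same fetus as the only overlap and rose by 1.22 (standard error 0.36) or by 1.504 without it. Outside this list, PSME2, the proteasome activator subunit that interferon also induces, rose by 0.75 (standard error 0.24) without overlap, from 12.40 to 12.45 in normoxia control to 12.60 to 13.72 in hypoxia control. CD86, a co-stimulatory molecule of antigen-presenting cells, and CD1D, which presents lipids, rose by 0.60 and 0.24, both without overlap. The MHC class II chain listed as OVAR-DRA rose by 1.22 (standard error 0.53), but that call was lost without normoxia control 2 or 3 or hypoxia control 2 or 3, with differences from 0.98 to 1.12. MHC probes match near-identical alleles and gene copies, so which gene they read is uncertain.

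The responses of the hypoxia control fetuses did not follow a single order. Hypoxia control 4 was the fetus farthest from normoxia for 150 of the 495 probes called higher that were measured in all 5, hypoxia control 2 for 125, hypoxia control 1 for 82, hypoxia control 3 for 74 and hypoxia control 5 for 64. Hypoxia control 5 was the nearest for 194 of them and hypoxia control 1 for 144. Because these probes were called with the same arrays, the counts describe how the difference was shared and test nothing.

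SAA3 and the peptides of neutrophil granules were highest in hypoxia control 2 and 3. SAA3, serum amyloid A, was 7.29, 7.07 and 6.83 in normoxia control and 6.59, 12.95, 11.06, 8.83 and 9.58 in hypoxia control. Hypoxia control 1 was below the normoxia range and the other hypoxia control fetuses above it, hypoxia control 2 by the most, and SAA3 rose by 2.74 (standard error 0.96, limma P = 0.0125, exact permutation p = 0.14) or by 3.54 without hypoxia control 1. It was well above background on 2 normoxia control and 4 hypoxia control arrays, and it was the only called gene of 14 in the prostaglandin and acute-phase list, whose median was -0.01. BAC5, a bactericidal peptide stored in neutrophil granules, was 8.33, 9.78 and 9.20 in normoxia control and 8.45, 11.60, 13.15, 8.72 and 10.86 in hypoxia control. Its difference of 1.45 (standard error 1.06) did not pass the test, since hypoxia control 1 and 4 stayed in the normoxia range while hypoxia control 3, 2 and 5 were above it. CATHL3 and SC5, further granule peptides, differed by 1.77 and 1.27 with the same 3 fetuses highest, and were not called. Of 10 complement and coagulation genes 2 were called higher and 1 lower, with a median of 0.11. C3, the central complement component, rose by 0.43 (standard error 0.17), a call lost without normoxia control 1 or 3 or hypoxia control 1 (0.34 to 0.42). SERPINA1, the antiprotease alpha-1 antitrypsin, was at least 1.12-fold higher in its mean with the processing used here, and it was well above background on 1 hypoxia control array. Its groups overlapped, with hypoxia control 4 at 6.67 against 6.59 to 6.74 in normoxia control. Under scaling to the 75th percentile SERPINA1 turned to -0.13 after normexp and was 0.79 with the processed signal. PLAU, the plasminogen activator urokinase, was called lower at -0.27 and lost its call without normoxia control 2 or 3 or hypoxia control 1, 2 or 4 (-0.28 to -0.19). CYBB, the catalytic subunit of the phagocyte oxidase, rose by 0.55 (standard error 0.21), a call lost without normoxia control 1 (0.48).

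Averaged over 8 measured neutrophil genes, the level relative to normoxia was 1.62 in hypoxia control 3, 1.23 in hypoxia control 2, 0.66 in hypoxia control 5, -0.03 in hypoxia control 4 and -0.18 in hypoxia control 1. The normoxia control fetuses ran from -0.31 to 0.22, and 1 of the 8 genes was called. SAA3 was likewise highest in hypoxia control 2 and 3, and the part of neutrophil RNA in its rise was not tested. In hypoxia control 4, the highest for CXCL10, SELP, IRF1, ICAM1 and MX2, the mean of the neutrophil genes lay within the normoxia range, although CYBB (8.39 against at most 8.02) was above it.

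Of 6 measured genes of microglia and macrophages, 2 were called higher, with a median difference of 0.41: CD14 and FCER1G, the signalling chain of Fc receptors, which rose by 0.49 (standard error 0.18). The call of FCER1G was lost without normoxia control 3 (0.40), which left 1 called, and without hypoxia control 1 or 4 there were 3. CTSS, a lysosomal protease of the same cells, was 0.33 higher without a call. The mean level of this list was 0.86 in hypoxia control 2 and 0.62 in hypoxia control 3, the fetuses with the most neutrophil signal, and between 0.17 and 0.26 in the others, all of them above the normoxia control range of -0.08 to 0.11. The part of neutrophil RNA in this order was not tested. SLC11A1, a metal transporter of phagocyte lysosomes, was 7.23, 7.26 and 7.19 in normoxia control and 7.88, 9.11, 8.75, 7.72 and 7.47 in hypoxia control, with hypoxia control 2 and 3 highest, and rose by 0.96 (standard error 0.33). Its signal cleared background on 2 of 3 arrays in normoxia control.

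Genes of lymphocytes and blood gave single calls. CD5, a surface protein of T cells and some B cells, was 7.61, 7.72 and 7.56 in normoxia control and 8.26, 9.01, 8.36, 8.82 and 8.17 in hypoxia control. The groups were well apart, and CD5 rose by 0.90 (standard error 0.23, limma P = 0.00126, exact permutation p = 0.036), while the T cell receptor genes TRAC, CD3D, CD3E and CD247 differed by -0.04, 0.0022, 0.10 and 0.02 and were not called. CD5 was the only called gene of 10 on the T and NK cell list, whose median was 0.06. IGHM, the immunoglobulin M heavy chain, rose by 1.91 (standard error 0.82), with 13.53 in hypoxia control 3 against at most 9.22 in normoxia control, and was the only called gene of 6 for B cells. Its call was lost without normoxia control 1 or 3 or hypoxia control 3 or 4, and the difference was 1.22 without hypoxia control 3. AHSP, the chaperone of alpha globin in red cells, rose by 0.89 (standard error 0.34), a call lost without normoxia control 2 or 3 (0.75 to 0.80). HBB and HBG, globin chains, differed by 0.59 and 0.76 with overlapping groups and no call. Red blood cell genes stood at 0.64, 0.70 and 0.86 in hypoxia control 2, 4 and 5, at -0.01 and 0.0048 in hypoxia control 1 and 3, and from -0.43 to 0.51 in normoxia control, and their part in the other results was not tested.

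**Figure D3:**
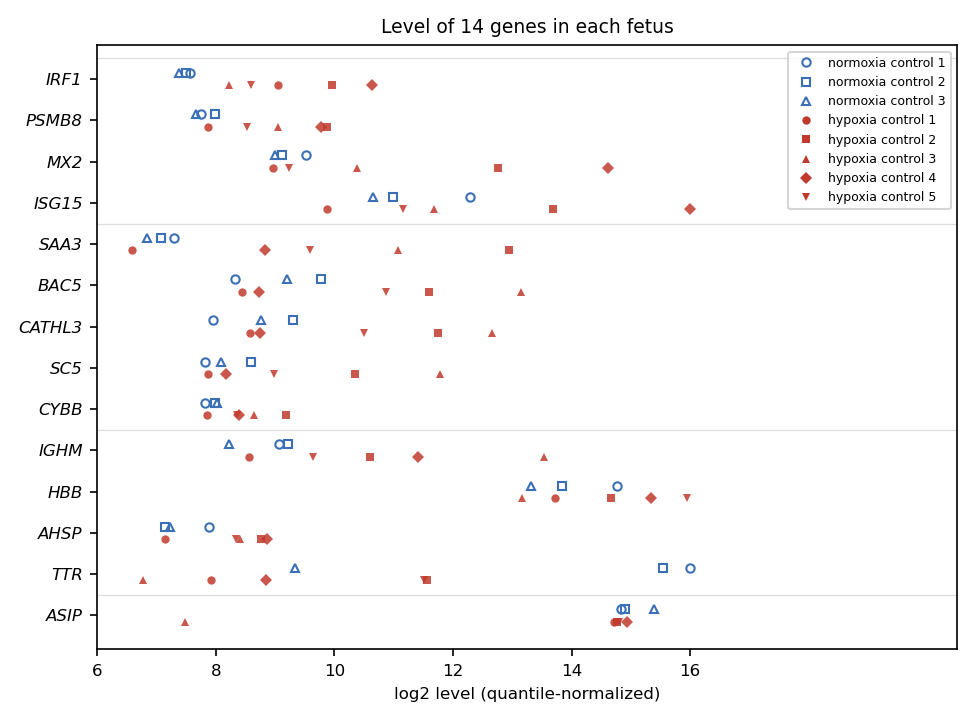
Log2 level (horizontal axis) of 14 genes in each fetus, with open blue symbols for normoxia control and filled red symbols for hypoxia control. Interferon-regulated genes (top) are highest in hypoxia control 4 or, for PSMB8, hypoxia control 2, SAA3 and granule genes (middle) are highest in hypoxia control 2 and 3, and ASIP (bottom) is near 15 in all fetuses but hypoxia control 3, where it is 7.47.

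Astrocytes were represented by 7 measured genes, all with positive differences and a median of 0.10, of which GFAP was called. GFAP, the intermediate filament protein of astrocytes, was 9.90, 10.02 and 9.78 in normoxia control and 10.86, 10.56, 10.95, 10.48 and 10.55 in hypoxia control. The hypoxia control fetuses were close to each other, with an SD of 0.211, and far from normoxia. GFAP rose by 0.78 (standard error 0.16, 1.72-fold, limma P = 0.000261, exact permutation p = 0.036), by 0.75 on the first slide and by 0.88 on the second, and by 0.74 without hypoxia control 1. VIM, the other glial filament, was 0.37 higher without a call (limma P = 0.0586, exact permutation p = 0.071), and the water channel AQP4 and the connexin GJA1 differed by 0.03 and 0.21.

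Growth factors gave 4 called increases and 1 decrease among 33 measured genes, with a median of 0.04. FGF2, basic fibroblast growth factor, was 9.42, 9.65 and 9.67 in normoxia control and 11.03, 9.96, 10.34, 11.12 and 9.91 in hypoxia control. It rose by 0.89 (standard error 0.37, limma P = 0.0284, exact permutation p = 0.036) with hypoxia control 1 and 4 highest, and its call was lost without either of them (0.75 and 0.73) or without normoxia control 1 or 2 (0.81 and 0.93). CCN2, connective tissue growth factor, was 10.23, 10.19 and 10.07 in normoxia control and 11.29, 10.61, 11.20, 10.82 and 10.34 in hypoxia control, and it rose by 0.69 (standard error 0.18, limma P = 0.00178, exact permutation p = 0.036) without overlap. Its relative CCN1 was 7.68, 7.47 and 7.50 in normoxia control and 9.51, 8.33, 8.14, 10.07 and 7.54 in hypoxia control, highest in the same fetuses as FGF2 and CXCL8. CCN1 rose by 1.17 (standard error 0.41), and the difference was 0.97 without hypoxia control 1. IGFBP3, which binds insulin-like growth factors, rose by 0.75 (standard error 0.23) without overlap. KIT, a receptor tyrosine kinase, was called lower, but it was not well above background on any array and has no measured fold.

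Matrix and cell surface genes had 4 called increases and 1 decrease of 23, with a median of 0.08. ANXA2, a calcium-dependent membrane protein, was 11.74, 11.75 and 11.79 in normoxia control and 12.01, 12.19, 12.17, 12.02 and 12.35 in hypoxia control, a narrow spread in both groups, and rose by 0.39 (standard error 0.11, limma P = 0.00237, exact permutation p = 0.036). TIMP3 and TIMP1, inhibitors of matrix metalloproteinases, rose by 0.60 and 0.39, TIMP3 without overlap. The call of TIMP1 was lost without normoxia control 3 or hypoxia control 2 or 5 (0.28 to 0.31). FBLN1, a matrix glycoprotein also listed for meninges, rose by 0.39. Under scaling to the 75th percentile it gave 0.18 without a call after normexp and 0.72 with the processed signal. Its highest level, 8.72, was in hypoxia control 5. In that fetus the mean of 8 meningeal and fibroblast genes was 0.87, against -0.31 to 0.24 in the other hypoxia control fetuses and -0.06 to 0.10 in normoxia control. MYL9, of smooth muscle, was also highest there, at 12.86. The part of meninges or vessel wall in these results was not tested.

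Of 14 measured targets and parts of the hypoxia-inducible factor system 2 were called higher and 1 lower, with a median of 0.11. SLC2A3, the neuronal glucose transporter GLUT3, was 13.47, 13.24 and 13.32 in normoxia control and 15.04, 14.23, 14.16, 14.18 and 13.53 in hypoxia control. Hypoxia control 1 was highest, hypoxia control 5 was close to normoxia without overlap, and SLC2A3 rose by 0.88 (standard error 0.25, limma P = 0.00301, exact permutation p = 0.036), or by 0.68 when hypoxia control 1 was left out. The call was lost when hypoxia control 1 was instead placed among the ketamine fetuses, as its other labels read. ARNT, the constitutive partner of the hypoxia-inducible factors, was called at 0.15 close to background, a call lost without normoxia control 1 or 2 or hypoxia control 2 or 3, and under scaling to the 75th percentile it turned to -0.18 after normexp and was 1.14 with the processed signal. VEGFA, LDHA, HIF1A and EPO, which are targets or parts of the same system, differed by 0.17, 0.14, 0.25 and 0.08 and were not called. NOS3, the endothelial nitric oxide synthase, was called lower at -0.41 (standard error 0.19) but kept its call only without hypoxia control 3 or 5, and was -0.26 without hypoxia control 4.

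TXNIP, an inhibitor of thioredoxin and of glucose uptake, rose by 0.66 (standard error 0.22), from 10.76 to 11.11 in normoxia control to 11.07 to 12.13 in hypoxia control. Its call was also lost when hypoxia control 1 was placed among the ketamine fetuses (0.53). Among 10 genes on the list of immediate early and MAP kinase genes, CEBPB, a transcription factor of inflammation, was called higher at 0.54. It lost that call without 6 of the 8 arrays in turn (0.39 to 0.57). The other increase on this list was TIMP3, the metalloproteinase inhibitor already counted with the matrix genes. SPRY2, an inhibitor of growth factor signalling, fell by 0.28 (standard error 0.08). The antioxidant enzyme SOD1 fell by 0.17 (standard error 0.06), and the other called genes of 14 on the stress list were TXNIP and NOS3. The heat shock genes HSPA1A, HSP90AA1 and HSPA5 differed by 0.07, -0.05 and 0.0039 and were not called.

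Enzymes of metabolism were called in both directions, to be read against 6.55% higher and 4.30% lower over all named genes. PDXK, pyridoxal kinase, which activates vitamin B6, was 10.099, 10.40 and 10.35 in normoxia control and 11.29, 12.08, 11.44, 12.23 and 10.58 in hypoxia control. The groups did not overlap, and PDXK rose by 1.24 (standard error 0.32, 2.36-fold, limma P = 0.00153, exact permutation p = 0.036) or by 1.30 without hypoxia control 1. MTHFD2, a mitochondrial folate enzyme, rose by 0.70 (standard error 0.21) without overlap, whereas SHMT1, the cytosolic serine hydroxymethyltransferase, was lower by -0.35, a call lost without normoxia control 1 or 2 or hypoxia control 2, 3 or 4. Of 25 genes of energy metabolism 3 were called higher and 2 lower, with a median of 0.0050. The called decreases were BCAT1 and PRKAA2, the catalytic subunit of the energy sensor AMPK, at -0.15, whose call was lost without normoxia control 1 or 3 or hypoxia control 1, 2 or 5 (-0.15 to -0.10). SCD, a fatty acid desaturase, rose by 0.43 (standard error 0.12), and PPARGC1A and PPARG, regulators of mitochondrial and lipid genes, by 0.32 and 0.20, all without overlap. For PPARGC1A this is the only called probe of 3. Scaled to the 75th percentile after normexp, SCD, PPARGC1A and PPARG gave 0.35, 0.19 and 0.07 without calls. The processed signal scaled in the same way gave 0.69, 0.57 and 0.39. BCAT1, the cytosolic branched-chain aminotransferase, fell by 0.21, and it lost its call without normoxia control 2 (-0.19). None of 6 respiratory chain genes, 9 ubiquitin and proteasome genes or 25 ribosomal and translation genes was called, and several of the last were saturated.

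Apart from TTR, the decreases were smaller. NRP1, the receptor for semaphorins and vascular growth factor that guides axons and vessels, was 10.50, 10.40 and 10.91 in normoxia control and 10.11, 10.37, 9.44, 9.79 and 10.30 in hypoxia control. The groups were separated by a narrow gap, hypoxia control 3 was lowest, and NRP1 fell by 0.60 (standard error 0.21, limma P = 0.0138, exact permutation p = 0.036). Its call was lost without normoxia control 3 (-0.44), and the fall was 0.21 on the first slide and 1.06 on the second. LGALS1, the lectin galectin-1, was 12.75, 12.85 and 12.75 in normoxia control and 12.52, 12.45, 12.11, 12.05 and 12.56 in hypoxia control. It fell by 0.45 (standard error 0.14, limma P = 0.00724, exact permutation p = 0.036), and by 0.49 without hypoxia control 1. The second LGALS1 probe, which reads another stretch of the message, gave -0.32 and was called too.

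Genes of TGF-beta, BMP and Wnt signalling were called lower in 5 of 31 cases and higher in none, with a median of -0.05. These were BAMBI, a decoy receptor of the pathway (-0.44), TGFB1, the ligand itself (-0.23), INHA, an inhibin subunit (-0.23), SMAD2, a signal transducer (-0.21), and ACVR1, an activin and BMP receptor (-0.15). NOG, the BMP antagonist noggin, was among the largest decreases by its dimmer probe (-0.36) and was not called by its brighter probe (-0.29), although the probes share 59 bases. BAMBI lost its call without any of 6 of the 8 arrays (-0.48 to -0.37), TGFB1 without any of 5 (-0.24 to -0.16) and ACVR1 without any of 5 (-0.16 to -0.13), INHA without normoxia control 3 (-0.18) and SMAD2 without normoxia control 1 (-0.19). The number called lower fell to 1 without normoxia control 3, to 2 without normoxia control 1 or 2 or hypoxia control 4, and to 3 without hypoxia control 1. Without normoxia control 3 or hypoxia control 1, another member was called higher. Scaling to the 75th percentile left none called lower after normexp, and with the scanner software's processed signal it left 1 lower and 1 higher.

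Other genes with separated groups were low in level or change. TAC3, the precursor of neurokinin B, was 7.91, 7.66 and 7.81 in normoxia control and 7.26, 7.35, 7.49, 7.37 and 7.60 in hypoxia control, and it fell by 0.38 (standard error 0.10, limma P = 0.00172, exact permutation p = 0.036). GJA4, a connexin of arterial endothelium, fell by 0.29 (standard error 0.08), and OCLN, the tight junction protein occludin, by 0.38 (standard error 0.15). OCLN was the only called gene of 19 for tight junctions and barrier transport, and that call was lost without normoxia control 1 or 3 or hypoxia control 2 or 4, with -0.26 without hypoxia control 4. DYNLT3, a dynein light chain, fell by 0.22 (standard error 0.07), but only 1 of its 2 probes was called, and these share no run over 6 bases. BARX2 and NKX2.2, homeobox transcription factors, were called lower at -0.28 and -0.26, and lost their calls without 5 and 6 of the 8 arrays in turn. NKX2.2 was called by 1 of its 2 probes, although these share 59 bases.

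Genes of neurons and synapses were not called. The 3 measured neuron markers SST, NPY and NEFH differed by -0.25, -0.01 and -0.01. SST, somatostatin, was saturated on the 3 normoxia control arrays and on no hypoxia control array, so that the size of its difference is uncertain. Its groups did not overlap, with 15.95 to 15.99 in normoxia control and 15.17 to 15.90 in hypoxia control (limma P = 0.133, exact permutation p = 0.036). Of 15 synaptic and receptor genes none was called and the median was 0.03. Of 36 neuropeptide and hormone genes 1 was higher and 2 were lower. STAR, which moves cholesterol into mitochondria for steroid synthesis, was at least 1.40-fold higher with the processing used here. It was not well above background on any normoxia control array. Under scaling to the 75th percentile its difference was 0.23 without a call after normexp and 2.33 with the processed signal. TAC3 and NR3C1, the glucocorticoid receptor, fell by 0.38 and 0.18. Cell division genes had no call among 6, and muscle genes none among 6. Among the apoptosis and survival genes MCL1 and CTSB were called of 12, at 0.42 and 0.18. MCL1, an inhibitor of apoptosis, lost its call without normoxia control 2 or hypoxia control 2 and was 0.27 without hypoxia control 4, and CTSB, a lysosomal protease, without 5 of the 8 arrays in turn. Reference genes GAPDH, ACTB and TBP differed by -0.01, -0.02 and -0.10, and B2M was the only called gene of 5 on that list.

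**Figure D4:**
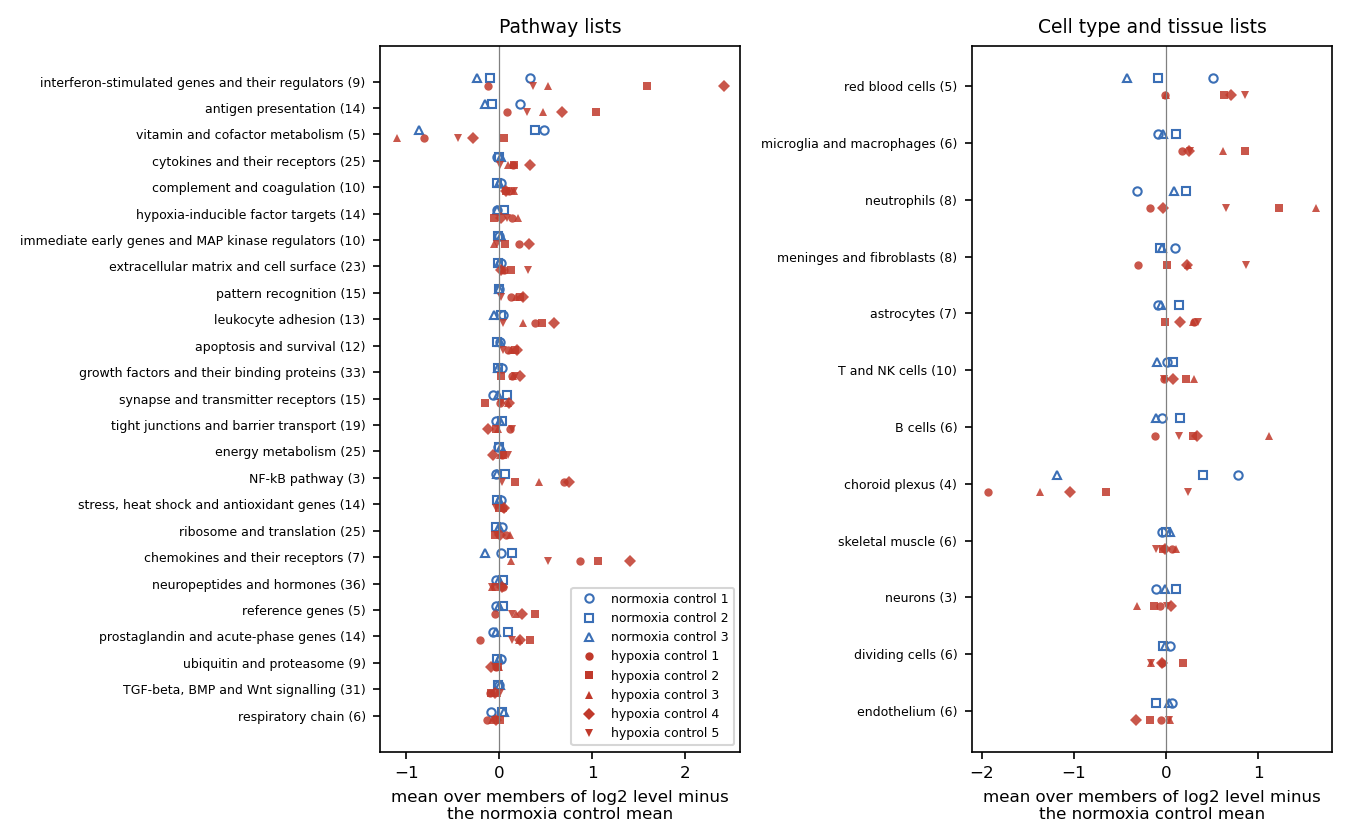
Mean over the measured members of each list (number in parentheses) of the log2 level minus the normoxia control mean, for every fetus, in lists with at least 3 measured members sorted by their median difference. Interferon genes reach 2.42 in hypoxia control 4 and neutrophil genes 1.62 in hypoxia control 3, while synaptic, ribosomal and energy lists stay between -0.15 and 0.11 in all 8 fetuses.

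The largest decrease of all was TTR, transthyretin, a carrier of thyroid hormone and retinol that the choroid plexus makes in quantity. It was 16.00, 15.54 and 9.33 in normoxia control and 7.91, 11.56, 6.78, 8.85 and 11.51 in hypoxia control. Normoxia control 1 and 2 stood far above all other fetuses and normoxia control 3 lay among the hypoxia control fetuses. The difference of -4.30 (standard error 1.64, limma P = 0.0193, exact permutation p = 0.11) was called, and the call was lost without normoxia control 1 (-3.11) or normoxia control 2 (-3.34). The difference is not exact in size, since the probe was saturated on 1 normoxia control array and not well above background on 1 hypoxia control array. It was -6.03 on the first slide and -0.28 on the second, and it was -3.95 without hypoxia control 1. The other measured choroid plexus genes, IGF2, IGFBP2 and AQP1, differed by 0.42, 0.11 and -0.03. How much choroid plexus each sample held was not tested beyond these genes.

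Outside the named genes, the 2 largest increases with separated groups were those of probes A_70_P020946 and A_70_P058116, for which no gene name was found. Probe A_70_P020946 was 7.48, 7.87 and 7.81 in normoxia control and 11.65, 12.91, 10.04, 14.69 and 8.19 in hypoxia control, and it rose by 3.78 (standard error 1.18, limma P = 0.00622, exact permutation p = 0.036). Probe A_70_P058116 was 7.01, 7.59 and 6.83 in normoxia control and 8.18, 13.04, 8.67, 13.63 and 9.76 in hypoxia control, and it rose by 3.51 (standard error 1.104). Both were highest in hypoxia control 4 and then 2, as was the mean of the interferon genes, but the order of the remaining fetuses differed. The 2 largest decreases of unnamed probes with separated groups, A_70_P066676 and A_70_P021241, fell by 0.97 (standard error 0.22, limma P = 0.000487, exact permutation p = 0.036) and by 0.91 (standard error 0.27). All 4 of these probes kept their calls under every alternative setting tried.

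All 24 named genes with the largest changes and separated groups kept their direction on each slide and under every alternative. On each slide and with any array left out, that direction was fixed by choosing genes without overlap and tests nothing. Depending on the setting, 13 to 24 of these genes kept their calls. CXCL10, SELP, IRF1, NFKBIA, PDXK, CD14, GFAP, PSME2 and LGALS1 were among those called under each of the 22 alternatives. Among the genes named from the lists, PSMB8, B2M, CCN2 and ANXA2 were too. The limma adjusted P of the genes just named was between 0.319 and 0.494.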

How the data were processed

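RNA of the frontal cortex of each fetus was hybridized to a 1-colour ovine oligonucleotide array. The authors deposited the scanner output, whose intensity values (mean spot signal and median local background) were extracted with Feature Extraction 10.1.1.1 per the file headers, and a table of normalized log2 values, for which the submitters' processing notes name limma and R 2.15.1. The log2 table deposited by the authors was used only as an alternative. From the intensities, background was corrected by normexp (offset 50), control spots were removed, quantile normalization was applied between arrays, the 222 outlier spots were treated as missing and spots of a probe were averaged. limma 3.58.1 in R 4.3.3 was fitted to 16 arrays in 4 groups without covariates, after being tested on simulated data. Of the 15008 probes, 132 had a missing value, and their fits used the remaining arrays. Intensities carry no read depth, and the number of arrays limits the precision. Single values were compared by an exact permutation test over the 56 divisions of the 8 fetuses, two-sided. Genes were named from the array files and, where needed, RefSeq symbols of the ARS-UI_Ramb_v3.0 assembly. The text names the 12 largest called increases and decreases with groups that did not overlap, members called in each of 25 pathway and 15 marker lists with the brightest members where fewer than 3 were called, the 5 named genes with the largest SD in hypoxia control, at most 4 unnamed probes, and genes of other cell types. In the lists the probe with the highest mean stood for a gene. The samples and lists were chosen with earlier results of these data known. Alternatives changed background correction, normalization, filter, slide, samples, the label of hypoxia control 1, the replicate block, weights and moderation. Replicate numbers of the groups were not used to pair the fetuses in the main fit. The values of 2 genes that met these rules are not reported here.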

Additional observations from a re-analysis of the deposited data

Results flagged for a closer look

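In each of the following genes 1 of the 5 hypoxia control fetuses stood apart from the other 4 by Dixon's criterion, which chance meets in about 1 in 20 groups. Of 133 genes and 37 lists tested, 10 genes and 0 lists met it. The genes tested include 5 chosen for their large SD among these same fetuses, ASIP among them, for which that rate does not hold. ASIP was 7.47 in hypoxia control 3 and 14.71 to 14.93 in the others. SST was 15.17 in the same fetus against 15.77 to 15.90, and ARNT was 7.15 there against 6.99 to 7.01. MYL9 was 12.86 in hypoxia control 5 against 11.48 to 11.71. TRAF3 was 8.01 in hypoxia control 2 against 8.35 to 8.42. INHA was 7.75 in hypoxia control 4 against 7.47 to 7.52. IGHG1 was 7.34 in hypoxia control 1 against 7.76 to 7.85. The remaining 3 genes were saturated on all 8 arrays, so that their gaps carry no level: CXCL1 at 15.98 in hypoxia control 5, RPL11 at 15.9983 in the same fetus and UBB at 15.998 in hypoxia control 1.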

How the results depend on the processing

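The count of called probes depended on the scaling of the arrays. Scaling to the 75th percentile after normexp gave 194 calls, 137 higher and 57 lower (70.6% higher), and moved the median difference of all probes to -0.16. The scanner software's processed signal scaled to its 75th percentile gave 998 with 438 lower (56.1% higher) and cyclic loess 928 with 364 lower (60.8% higher), against 41.3% higher with quantile normalization. The Benjamini-Hochberg adjusted P of limma left 0 calls, 0 higher and 0 lower, where 1201 had an unadjusted P under 0.05. With 1 probe per named gene there were 116 calls, 70 higher and 46 lower. Leaving out 1 array gave 816 to 1381 calls, 332 to 613 higher and 484 to 781 lower. Under normexp with 75th percentile scaling IRF2 (-0.014), SERPINA1 (-0.13) and ARNT (-0.18) changed sign. With the replicate number as a block 1484 probes were called, of which 885 were shared, 73.7% of the calls without the block. Same-numbered fetuses correlated by 0.18, 0.04 and 0.05 in their deviations, which was the highest value for normoxia control 1 and for normoxia control 3. Normoxia control 2 correlated best with hypoxia control 4 (0.10). The main fit did not use the numbers as pairs, and whether they pair the fetuses was not tested. Placing hypoxia control 1 with the normoxia ketamine fetuses gave 1334 calls, 894 of them shared. Slide as a block gave 1199 and the log2 values of the authors 1235. The causes of these differences were not tested. Of the 81 named probes called, 44 kept their calls with each array left out. Probes near background and saturated probes limit the low and high ends.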
